A study of Mus musculus with 6 samples.

Results

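The genes described here carry calcium and magnesium back from the tubule fluid of the kidney. There are 10 of them, Trpv5, Trpm6, Calb1, S100g, Slc8a1, Pvalb, Cldn16, Cldn19, Casr and Atp2b1, of 20284 genes that have a named probe on the array. They were chosen by function, with earlier results of these data known. Their probes were chosen by the annotated RefSeq transcript, which gave 14 probes. Whole-kidney RNA came from male C57BL/6 mice, an inbred laboratory strain, aged 2 months (young) or 20 months (aged), with no other treatment or genotype in the labels. There were 3 samples per age, each on its own single-colour Agilent array, from independent RNA preparations that the labels do not tie to separate mice. A p-value here therefore rests on sample-to-sample spread, part of which can be technical.

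Most filtered calcium and magnesium returns to the blood passively, and the last part is set by regulated transport in the distal nephron. In the thick ascending limb both ions pass between the cells through a pore built from the tight junction proteins claudin-16 and claudin-19, under the control of the calcium-sensing receptor. In the distal convoluted and connecting tubules calcium enters through the channel TRPV5, is carried by the cytosolic calbindins and is pumped out by the sodium-calcium exchanger NCX1 and the plasma membrane calcium pump, while magnesium enters the distal convoluted tubule through TRPM6.

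Between 55.3% and 72.9% of probes were well above background at 2 months and between 46.3% and 62.8% at 20 months. These shares averaged 65.7% ± 9.23 and 54.9% ± 8.32 (SD, n = 3 each; exact permutation test, two-sided, p = 0.3; no comparison of 3 with 3 can go below 0.1). All 6 arrays shared 1 slide, young in row 1 and aged in row 2, so that an effect of the row and one of age cannot be told apart. The permutation test took no account of the slide columns. In columns 1, 2 and 3 the shares were 72.9%, 69.0% and 55.3% at 2 months. At 20 months they were 62.8%, 55.7% and 46.3%, lower than the young array in every column. The kidney markers checked, those of proximal tubule, thick ascending limb, distal convoluted tubule, connecting tubule and podocytes, were well above background on all 6 arrays. Leukocyte markers had a summed log2 level of 2.61 to 3.17 at 2 months and 4.16 to 4.28 at 20 months. All 6 tested genes had aged arrays above all young ones, against 10.4% of all genes tested. Of the 6, 2 passed the adjusted threshold as higher in aged kidney, against 1.98% of all genes. Adipocyte markers ran from 0.54 to 2.99 at 2 months and from 3.20 to 3.54 at 20 months, with 0 of 4 tested genes passing. What part these cells have in the values below was not tested. Precision is limited by having 3 arrays per age, and with whole-kidney RNA fewer cells of a type and less RNA per cell cannot be told apart.

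The promoters of 9 of the 10 members were found in the RefSeq table (build GRCm38.p6). The 250 bases before the start site are shown for Trpv5, S100g, Cldn16 and Cldn19. These are 4 of the 5 members whose normalised signals on the gene's brightest probe were all lower on aged than on young arrays. The second S100g probe overlapped between ages. Capitals mark matches to 4 short motifs: TATAAA, the core of the TATA box, on the gene's strand, and AGGTCA and GGTTCA, hexamers recognised by nuclear receptors, and CCCGCCC, the core of the GC box, on both strands.

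Trpv5 (chr6:41680724-41680973, minus strand): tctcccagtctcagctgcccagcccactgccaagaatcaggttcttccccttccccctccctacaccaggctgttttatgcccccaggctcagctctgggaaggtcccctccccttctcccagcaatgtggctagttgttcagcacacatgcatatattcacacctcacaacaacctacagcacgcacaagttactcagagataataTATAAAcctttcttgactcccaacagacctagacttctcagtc
S100g (chrX:162964600-162964849, minus strand): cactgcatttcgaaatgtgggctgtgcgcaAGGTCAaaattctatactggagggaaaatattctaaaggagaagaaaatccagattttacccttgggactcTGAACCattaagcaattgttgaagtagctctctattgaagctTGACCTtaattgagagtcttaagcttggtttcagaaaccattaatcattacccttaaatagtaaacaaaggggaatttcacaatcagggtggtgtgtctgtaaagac
Cldn16 (chr16:26462885-26463134, plus strand): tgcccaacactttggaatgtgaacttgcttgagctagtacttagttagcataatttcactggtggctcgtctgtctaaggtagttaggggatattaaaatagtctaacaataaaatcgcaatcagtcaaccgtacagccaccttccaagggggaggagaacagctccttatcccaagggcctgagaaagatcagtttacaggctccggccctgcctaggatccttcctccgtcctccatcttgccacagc
Cldn19 (chr4:119255191-119255440, plus strand): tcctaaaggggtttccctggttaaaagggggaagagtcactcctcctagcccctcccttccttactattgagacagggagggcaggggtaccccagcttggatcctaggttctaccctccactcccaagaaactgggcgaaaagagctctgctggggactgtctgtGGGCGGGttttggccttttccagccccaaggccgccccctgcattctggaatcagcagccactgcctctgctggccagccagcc

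The Trpv5 region holds TATAAA beginning 43 bases before the start, a motif found in 7.59% of the 32851 regions of this length. The S100g region holds AGGTCA at 220 and, on the opposite strand, at 107 bases before the start, and GGTTCA on the opposite strand at 149. These hexamers occur in 14.0% and 8.85% of all regions. CCCGCCC occurs in 23.4% of regions and, on the opposite strand, once in that of Cldn19. The Cldn16 region holds none of the 4. These matches are descriptions of the letters and were not tied to the expression values.

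None of the members passed the test between ages. With limma, 0 of the 9 members tested had an adjusted p under 0.05, against 3.38% of the 14548 genes tested (1.98% higher and 1.4% lower in aged kidney). At an unadjusted p under 0.05 there were 4, Calb1, Trpv5, Cldn16 and Cldn19, against 17.1% of all genes, and in each the aged mean was the lower one. On each gene's brightest probe, the aged arrays all lay below the young arrays for 5 members, the same 4 and S100g, against 11.5% of all genes. For 0 members did they all lie above, against 10.4%, so the ages were separate for 5 of 9 members and for 21.9% of all genes. The change was below 0 for 7 of 9, against 52.8% of all genes, and its median was -0.16 on the log2 scale against -0.01 over all genes. The median was -0.30 without aged replicate 2 and -0.078 when the probes of a gene were averaged. The members ranged from -0.70 for Calb1 to 0.33 for Trpm6. Of the 12 member probes tested singly, 0 passed, against 2.09% of 30825 probes, and the ages were separate for 6 of 12, against 20.9% of probes. Because the members were chosen with earlier results of these data known, these shares describe the set and are not a test of it.

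**Figure D1:**
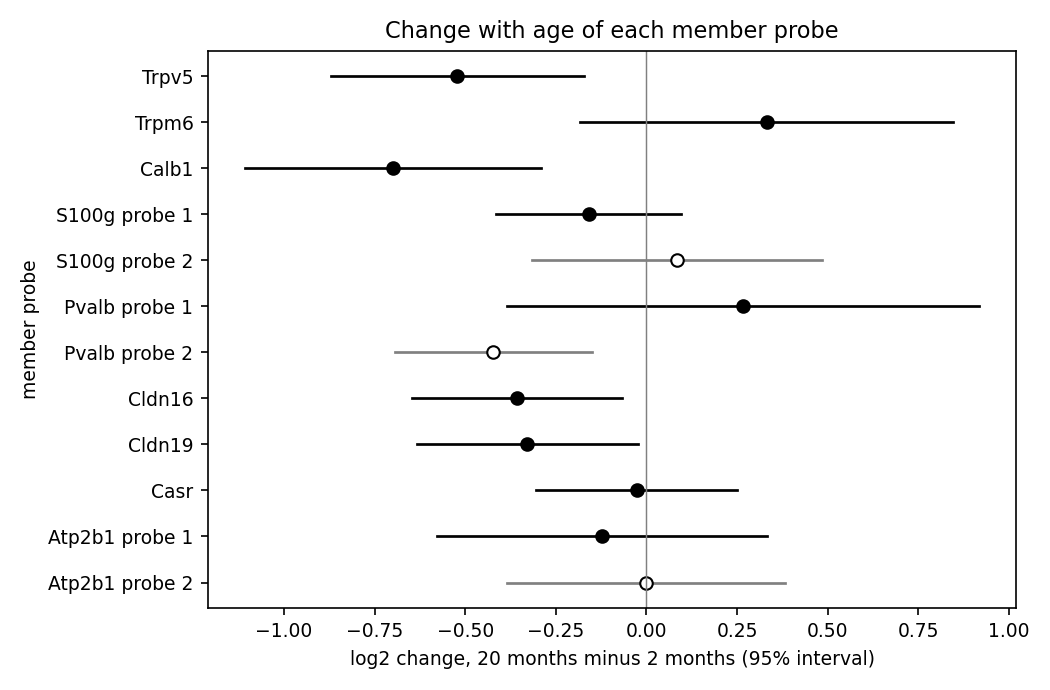
Log2 change between ages (20 months minus 2 months, x axis) of the 12 tested member probes (y axis), with the 95% interval from limma's fit over all probes. Filled points are the probe that represents its gene and open points a gene's other probe; the intervals of Calb1, Trpv5, Cldn16, Cldn19 and Pvalb probe 2 lie below 0 before adjustment, and no probe passed after it.

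Trpv5 encodes the channel through which calcium enters distal tubule cells. Its log2 signal, less each array's 75th percentile, was -1.32, -1.15 and -1.22 on young replicates 1, 2 and 3 and -1.91, -1.87 and -1.48 on aged replicates 1, 2 and 3. The groups did not overlap, and aged replicate 3 lay nearest to the young arrays. The aged mean was 1.44-fold below the young mean (log2 change -0.52 ± 0.14, SE, 95% interval -0.85 to -0.20, adjusted p = 0.104). Without aged replicate 3 the change was -0.66 and the adjusted p 0.0475, and over all alternatives the adjusted p ran from 0.0475 to 0.307.

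Trpm6, the magnesium entry channel of the distal convoluted tubule, had the opposite sign. Its values were 0.54, 0.71 and 0.08 at 2 months and 0.60, 1.13 and 0.60 at 20 months, so the groups overlapped, with young replicate 3 the lowest and aged replicate 2 the highest. The change was 0.33 ± 0.21 (95% interval -0.15 to 0.81, adjusted p = 0.471), and it was 0.15 without young replicate 3 and 0.16 without aged replicate 2.

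**Figure D2:**
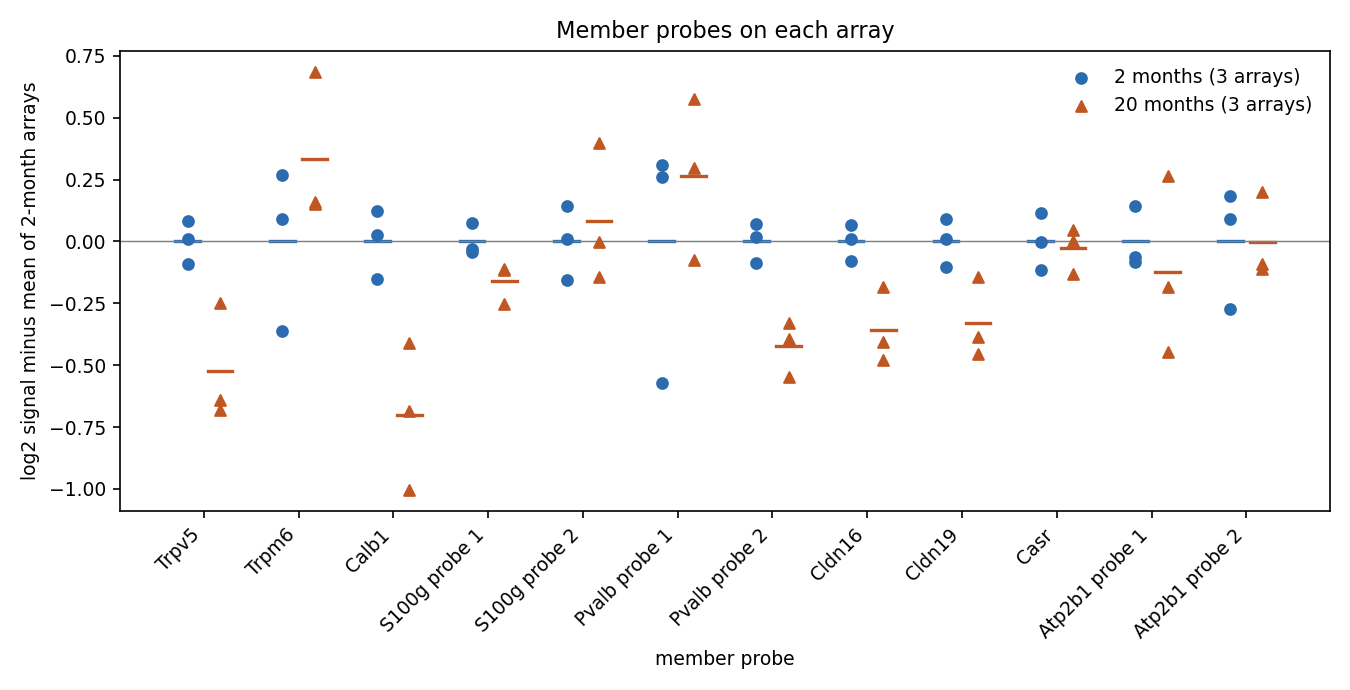
Log2 signal of each tested member probe on each of the 6 arrays, less the mean of that probe's 3 young arrays (y axis); circles are 2-month and triangles 20-month samples, and short lines are group means. The triangles lie below all circles for Trpv5, Calb1, S100g probe 1, Pvalb probe 2, Cldn16 and Cldn19, and the spread is widest for Pvalb probe 1, where young replicate 3 lies far below the others.

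Calb1 encodes calbindin-D28k, which ferries calcium across distal tubule cells and buffers it. Its signals were 2.00, 1.90 and 1.73 at 2 months and 0.87, 1.47 and 1.20 at 20 months. No aged array reached the lowest young one, and aged replicate 1 was the lowest of all. The aged mean was 1.62-fold below the young mean (log2 change -0.70 ± 0.17, 95% interval -1.08 to -0.32), the largest difference among the members, with an adjusted p of 0.0692. Calb1 passed in 4 of 17 alternative analyses, with normexp background correction (0.0349), with only probes above background on all 6 arrays (0.0385), with a trended robust variance (0.0130) and with array weights (0.0456). In the other 13 the adjusted p reached 0.256. Leaving out single arrays gave changes of -0.84 to -0.55, and within slide columns 1, 2 and 3, which pair a young with an aged array, the differences were -1.13, -0.44 and -0.53.

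S100g encodes calbindin-D9k, a small calcium carrier and a known target of vitamin D. Its brighter probe read 4.17, 4.28 and 4.18 at 2 months and 4.10, 3.96 and 4.10 at 20 months. These groups did not overlap, though they lay close together, and the change was -0.16 ± 0.10 (95% interval -0.40 to 0.08, adjusted p = 0.487). Its second probe read 3.85, 3.98 and 3.68 at 2 months and 3.84, 3.69 and 4.24 at 20 months, so that the groups overlapped, with a change of 0.08 ± 0.17 and aged replicate 3 the highest.

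Pvalb encodes parvalbumin, a calcium buffer of the early distal convoluted tubule that is also abundant in fast muscle and in some neurons. Its probes did not move together. The brighter probe read 2.86, 2.81 and 1.98 at 2 months and 2.48, 2.85 and 3.13 at 20 months, with young replicate 3 the lowest, and the change was 0.27 ± 0.26 (95% interval -0.34 to 0.88, adjusted p = 0.664). Without young replicate 3 this change was -0.019. The dimmer probe read 0.80, 0.95 and 0.90 at 2 months and 0.34, 0.56 and 0.49 at 20 months, and these groups did not overlap. Its change was -0.42 ± 0.12 (95% interval -0.70 to -0.15, adjusted p = 0.149 over all probes). The fitted changes of the 2 probes thus had opposite signs, but that of the brighter probe was not settled and turned without young replicate 3. The mean of both gave -0.078.

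The log2 difference between the 2 probes of a gene was compared between ages for the 3 genes with 2 tested probes. For Pvalb it was 2.07, 1.86 and 1.08 at 2 months and 2.14, 2.30 and 2.64 at 20 months. The groups did not overlap, and the shift was 0.69 (two-sided exact permutation p = 0.1, the smallest possible, and 0.15 adjusted over the 3 genes). The shift was -0.24 for S100g (exact permutation p = 0.1, adjusted 0.15) and -0.12 for Atp2b1 (exact permutation p = 0.5). Skeletal muscle markers had a summed log2 level of -0.91 to -0.30 at 2 months and -0.91 to -0.49 at 20 months. Of these 6 genes, Ckm, Myh4 and Mylpf were not well above background on all arrays of either age.

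**Figure D3:**
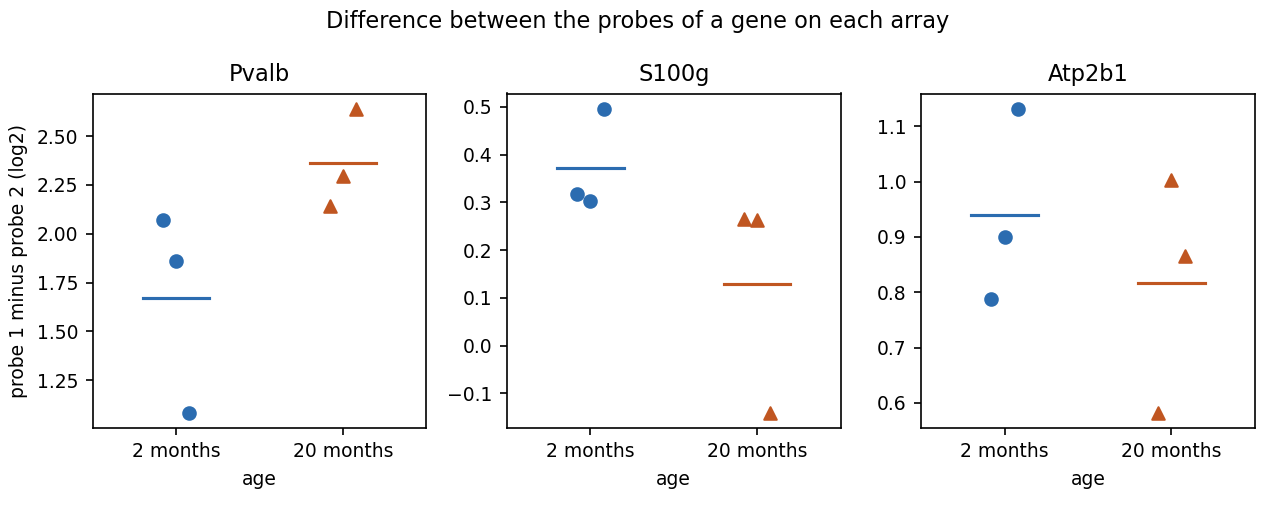
Log2 signal of the brighter probe less that of the other probe on each array (y axis, a separate scale per panel) for the 3 genes with 2 tested probes, by age (x axis); points are arrays and lines group means. For Pvalb the 3 aged arrays (2.14 to 2.64) lie above the 3 young arrays (1.08 to 2.07), for S100g below them, and for Atp2b1 the ages overlap.

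Calcium leaves the cell through the exchanger Slc8a1 (NCX1) and the pump Atp2b1 (PMCA1). At neither age did a probe of Slc8a1 exceed background on all 3 arrays, so Slc8a1 was not tested and no change is given. Its first probe gave processed signals of 12.8, 47.1 and 14.5 at 2 months and 17.3, 40.5 and 34.0 at 20 months, and it was well above background on young replicate 2 alone. Its second probe gave 7.35 to 27.1 at 2 months and 16.5 to 44.2 at 20 months, above background on 0 of 6. For scale, the lowest signal called well above background ran from 32.6 to 110 between arrays.

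Atp2b1 is expressed in most cells, not in the distal tubule alone. Its brighter probe read 0.77, 0.97 and 0.75 at 2 months and 0.38, 1.10 and 0.65 at 20 months, and the groups overlapped because aged replicate 2 was the highest array and aged replicate 1 the lowest. The change was -0.12 ± 0.18 (95% interval -0.55 to 0.30, adjusted p = 0.790), and its sign turned with normexp background correction (0.028) and without aged replicate 1 (0.039). Its second probe had means of -0.11 at both ages (95% interval of the change -0.38 to 0.38).

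Cldn16, the pore-forming claudin whose loss causes magnesium and calcium wasting, read 0.95, 0.81 and 0.90 at 2 months and 0.70, 0.41 and 0.48 at 20 months. Its partner Cldn19 read 0.72, 0.83 and 0.91 at 2 months and 0.68, 0.43 and 0.36 at 20 months. In both genes aged replicate 1 was the highest aged array and still lay below the lowest young one, by a small margin for Cldn19. The change was -0.36 ± 0.12 for Cldn16 (95% interval -0.63 to -0.09, adjusted p = 0.170) and -0.33 ± 0.12 for Cldn19 (95% interval -0.61 to -0.04, adjusted p = 0.226). Neither passed under any of the 17 alternatives, with adjusted p of 0.0666 to 0.647 and 0.0829 to 0.738.

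Casr, the calcium-sensing receptor that restrains this pore when blood calcium is high, read 0.75, 0.64 and 0.86 at 2 months and 0.75, 0.62 and 0.79 at 20 months. The groups overlapped almost entirely. The change was -0.03 ± 0.11 (95% interval -0.29 to 0.23, adjusted p = 0.931), and its sign turned with median centring (0.015), without young replicate 3 (0.030) and without aged replicate 2 (0.024).

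Markers of the segments that hold these genes also differed between arrays. Of 6 connecting tubule and principal cell markers, 0 passed, all 6 had a change below 0 (median -0.30), and 4 had aged arrays below all young ones, against 11.5% of all genes. Their summed log2 level was 5.60 to 5.63 at 2 months and 5.22 to 5.59 at 20 months. Klk1, the brightest of the list, read 5.14 to 5.22 at 2 months and 4.77 to 5.13 at 20 months, so this level reflects mainly that gene. Klk1 is also counted in the calcium transport list below. Scnn1b, a subunit of the epithelial sodium channel, read -0.62, -0.59 and -0.77 at 2 months and -1.13, -1.25 and -1.05 at 20 months (change -0.48 ± 0.11, adjusted p = 0.0641). It passed in 2 of 17 alternatives, with signal required on all 6 arrays (0.0445) and with array weights (0.0289), and elsewhere its adjusted p reached 0.411. Distal convoluted tubule markers had a median of 0.26 with 0 of 5 passing. All 5 had a change above 0, and 3 had aged arrays above all young ones, against 10.4% of all genes. Their summed level was 3.79 to 3.94 at 2 months and 4.10 to 4.19 at 20 months. Thick ascending limb markers had a median of -0.14 with 0 of 5 passing, and a summed level of 5.70 to 5.79 at 2 months and 5.48 to 5.72 at 20 months. Every one of these markers was well above background on all 6 arrays. The part of these marker levels in the values of Trpv5, Calb1, Trpm6, Cldn16 and Cldn19 was not tested.

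**Figure D4:**
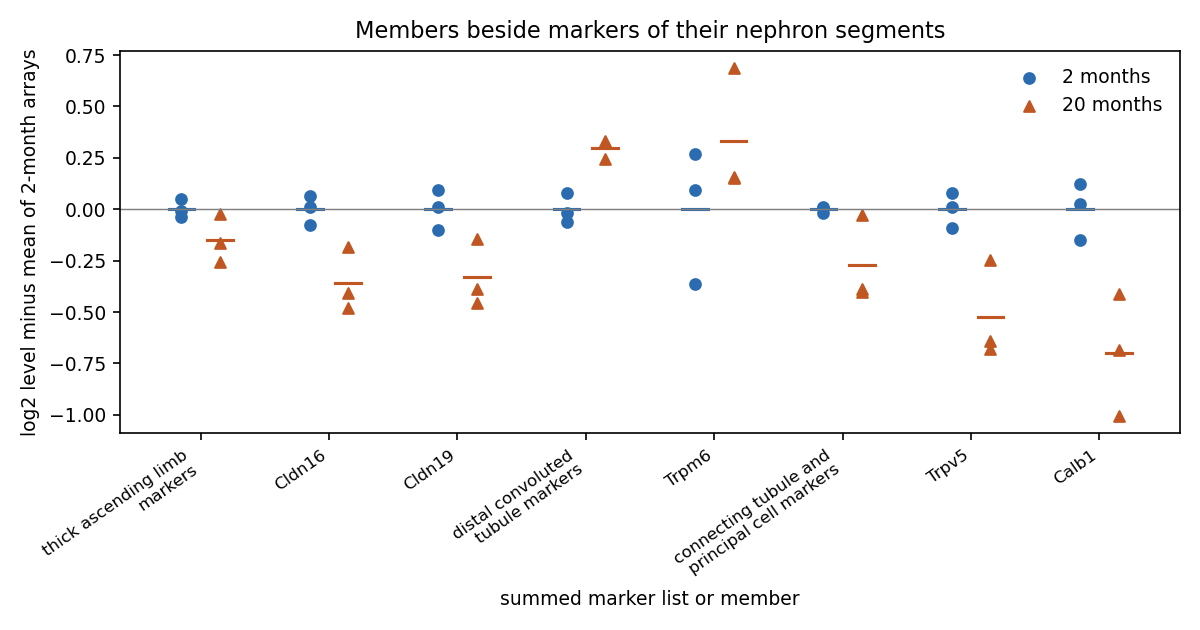
Log2 level on each array less the mean of the 3 young arrays (y axis) for 3 summed marker lists and some members (x axis). The members drawn are Cldn16, Cldn19, Trpm6, Trpv5 and Calb1. Circles are 2-month and triangles 20-month samples and lines group means. Members of these segments not drawn are Casr (change -0.03), S100g (-0.16 and 0.08 by probe) and Pvalb (0.27 and -0.42 by probe). Trpv5 and Calb1 stand beside the connecting tubule list but also belong to the distal convoluted tubule. The connecting tubule list and Trpv5 and Calb1 lie below 0 on the aged arrays, the distal convoluted tubule list and Trpm6 above it, and the thick ascending limb list overlaps between ages.

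Other genes of renal calcium and magnesium handling were taken as 4 lists by function, also with earlier results known. The lists held 53 genes, of which 50 were tested. None passed with limma. At an unadjusted p under 0.05 there were 8 (16% of 50, against 17.1% of all genes), 6 lower and 2 higher in aged kidney, and their median change was -0.06.

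Among 15 tested genes of calcium transport and its regulators, 11 had a change below 0 and the median was -0.06. Bspry, a binding partner of TRPV5, read 1.94, 1.93 and 2.00 at 2 months and 1.64, 1.55 and 1.74 at 20 months, without overlap (change -0.31 ± 0.10, adjusted p = 0.173).

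Of 11 tested genes of calcium sensing, parathyroid hormone and vitamin D, 6 had a change below 0 and the median was -0.01. The median gene was Fgf23, whose 2 probes differed widely in signal, as described under other observations. Cyp27b1, which makes the active form of vitamin D, read -2.00, -0.66 and -2.11 at 2 months and 0.06, -0.64 and -0.74 at 20 months. Young replicate 2 lay among the aged arrays, so the groups overlapped (change 1.15 ± 0.39, adjusted p = 0.187). It was 1.61 without young replicate 2 (adjusted p = 0.0308) and 1.19 with median centring (0.00235). Gnaq, which encodes a G protein subunit used by the calcium-sensing receptor, had a change of 0.20 ± 0.12 (adjusted p = 0.445).

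All 8 thick limb genes had a change below 0, with a median of -0.20. Cldn14, a claudin that blocks the claudin-16 and claudin-19 pore, was well above background on 3 of 3 young and 0 of 3 aged arrays. It read -5.14, -3.38 and -4.74 at 2 months and -6.09, -5.43 and -5.31 at 20 months, with young replicate 2 the highest. It entered the test through the young arrays alone and did not pass (adjusted p = 0.209). The fitted change was -1.19 ± 0.43 (95% interval -2.19 to -0.19). With the lowest signal well above background put in on aged arrays where the probe's own was lower, the aged mean was 1.94-fold lower. That figure compares array means and is not a lower limit on the difference. The fitted change ran from -1.55 to -0.67 over 16 alternatives, with -0.67 without young replicate 2, and it passed in 1 of them, median centring (0.0109). Slc12a1, the sodium transporter whose activity drives this pore, had a change of -0.25 ± 0.11 (adjusted p = 0.318).

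Of 16 tested magnesium genes, 12 had a change below 0 and the median was -0.08. Cnnm4, a magnesium transport protein, read 0.16, 0.35 and 0.15 at 2 months and -0.14, -0.28 and -0.09 at 20 months, without overlap (change -0.39 ± 0.11, adjusted p = 0.128). Slc12a3, the sodium chloride transporter of the distal convoluted tubule, read 2.44, 2.22 and 2.53 at 2 months and 2.74, 2.89 and 2.67 at 20 months (0.37 ± 0.12, adjusted p = 0.180). Rragd, which encodes a small GTPase, was well above background on 3 of 3 young arrays and, at 20 months, on replicate 1 alone, and it did not pass (adjusted p = 0.286).

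**Figure D5:**
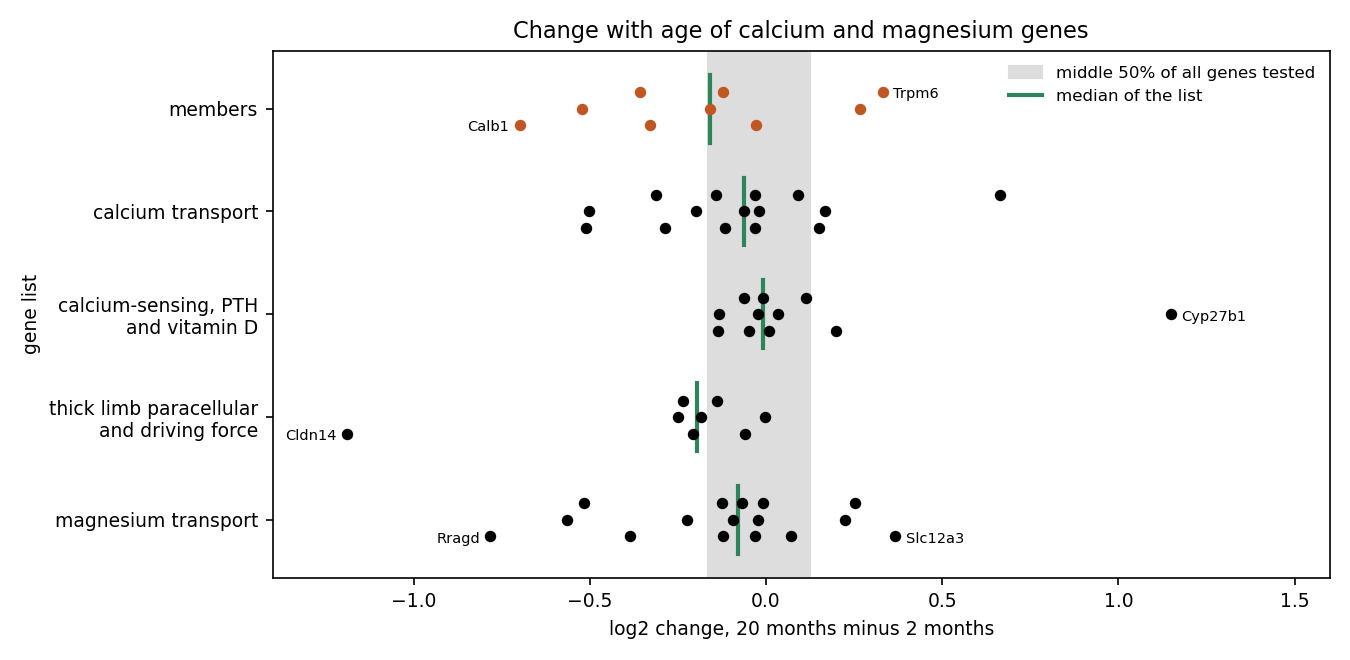
Log2 change between ages (20 months minus 2 months, x axis) of the 9 tested members and of the tested genes of 4 lists (y axis); each point is a gene, green lines are list medians, and the grey band is the middle range, from -0.16 to 0.12, of all genes tested. Names are given for Calb1, Trpm6, Cyp27b1, Cldn14, Rragd and Slc12a3, each at an end of its list, and no gene shown passed the adjusted threshold.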

How the data were processed

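Per the labels' protocols, Trizol-extracted RNA was turned into cDNA that Klenow enzyme labelled with Cy3 by random priming. Per the file headers, arrays of design 028005 (build mm9) were read with Feature Extraction 11.5.1.1, whose processed intensity has local background removed and a spatial trend corrected on each array, with no scaling across arrays. Values in the deposited table are log2 and differ from the log2 processed signal less the 75th percentile of probes by a median of 0.00497 to 0.00899 per array, which gives their scale and centring. Column medians ran from -4.23 to -3.96.

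From the scanner files, control spots and outlier-flagged spots were left out, spots of a probe averaged, and each array's 75th percentile over non-control spots subtracted. That percentile was a processed signal of 4366, 4061 and 2892 at 2 months and 4498, 4205 and 2702 at 20 months, and 0 probes were saturated. Of 55681 probes, 26762 had 1 symbol through RefSeq transcripts of build GRCm38.p6, 28919 none and 0 several. That build differs from the array's, and probe positions were not used. A gene was its probe with the highest mean over 6 arrays, tested if every array of 1 or both ages had it well above background. The age test was limma's (lmFit, then eBayes, 2-sided, Benjamini-Hochberg over all genes or probes, threshold 0.05), and the procedure was tested on simulated data. A marker list's summed level is the log2 of the sum of its genes' normalised signals, so its brightest genes weigh most.

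Named were all members, of each pathway list the 2 genes with the smallest p (1 of them is not reported here), and of marker lists a defining marker; Rragd, Slc8a3, Fgf23 and Trpv6 were named after their values were seen. Members and lists were chosen with earlier results of these data known. Software was R 4.3.3 with limma 3.58.1, and Python 3.11.15 with matplotlib 3.10.9.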

Additional observations from a re-analysis of the deposited data

How the results depend on the processing

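The 9 tested members were refitted under 17 alternatives. Trpv5, Trpm6, Calb1, S100g, Cldn16 and Cldn19 kept their direction in all of them. The count of members past the threshold was 0, and 1 (Calb1) with normexp background correction (offset 50, on the median spot signal), with signal required on all 6 arrays, with a trended robust variance and with array weights. It was 0 to 1 over the fits that left out 1 array, where the 1 was Trpv5 without aged replicate 3. The count of member probes was 1 (Calb1) with normexp, where 587 of 30825 probes passed, and with a trended robust variance, where 884 did, and 0 to 0 over the leave-one-out fits. The count of pathway genes was 2 with median centring (Cldn14 and Cyp27b1) and 0 to 2 over the leave-one-out fits. The median member change was -0.078 with the mean of a gene's probes and -0.30 to -0.12 over the leave-one-out fits. Pvalb, Casr and Atp2b1 turned sign. Pvalb was -0.078 with the mean of its probes and -0.019 to 0.44 over the leave-one-out fits, negative without young replicate 3. Casr was 0.015 with median centring and -0.084 to 0.030 over the leave-one-out fits. Atp2b1 was 0.028 with normexp and -0.32 to 0.039 over the leave-one-out fits. Of all 14548 genes, 491 passed, against 303 with normexp, 625 with a trended robust variance, 800 with median centring, 782 with array weights, 563 of 13152 with signal required on all 6 arrays, 266 with the replicate block, 141 to 922 over the leave-one-out fits, and 16 of 20284 with no filter on dim probes. With the replicate number (each number is 1 slide column) as a replicate block, 0 members passed (Calb1 adjusted p = 0.113, Trpv5 0.132). After scaling, same-numbered arrays deviated together little (correlations 0.06, -0.09 and 0.10 across genes), so the numbers were not taken as pairs in the main fit. These correlations do not cover array brightness. Before scaling, the 75th percentile and the share of probes above background were lowest in column 3 at both ages. No scaling moved the median of all genes by more than 0.06. Signal over background limits Slc8a1, and Cldn14 and Rragd in aged kidney.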

Other observations

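Some relatives of the members had 1 probe with high signal and another at background on the same arrays, which was noticed after the values were seen. Slc8a3, a sodium-calcium exchanger best known from neurons and muscle, has 2 named probes. The first was well above background on 6 of 6 arrays, with a normalised log2 signal of 4.89, 4.87 and 4.83 at 2 months and 4.80, 4.99 and 5.25 at 20 months. The second was well above background on 0 of 6. Fgf23, the phosphate hormone made in bone, showed the same split, with a normalised log2 signal of 4.88 in young and 4.87 in aged kidney on its first probe, above background on 6 of 6 arrays, and 0 of 6 arrays above background on its second. Neither first probe passed the test between ages (limma adjusted p = 0.637 and 0.979 over all probes). Which transcript these bright probes measured was not tested. Both first probes stand for their genes in the pathway lists above. Trpv6, the close relative of Trpv5, read -0.66, -1.90 and -2.07 at 2 months and -1.95, -2.16 and -2.04 at 20 months, with young replicate 1 far above the other arrays (change -0.50 ± 0.35, SE, limma adjusted p = 0.525 over all probes). The summed log2 level of urothelium markers was also highest on that array, at 2.17 against -0.57 and -0.67 on the other young arrays. On the aged arrays it was -1.48 to -1.12. The markers were uneven in this. Upk3a read 1.03, -3.23 and -3.10 at 2 months, while Upk3b read -1.93, -2.01 and -2.46.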
